A study of Sus scrofa with 30 samples.

Results

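The miRNAs described here are those named miR-124, miR-128, miR-129, miR-218, miR-219 and miR-383 in plasma of irradiated Göttingen minipigs. They are the rows of the count table with exactly these numbers after ssc-miR-, a rule on names that sets no threshold on a value, although the group was picked with earlier results of these data known. The rule found 12 of 411 rows, and since rows with identical counts were treated as the same measurement, they gave 10 measurements among 407 distinct ones. ssc-miR-129a-5p and ssc-miR-129b held the same count in every library, as did ssc-miR-218 and ssc-miR-218-5p. The other rows were ssc-miR-124a, ssc-miR-128, ssc-miR-129a-3p, ssc-miR-218-3p, ssc-miR-218b, ssc-miR-219a, ssc-miR-219b-3p and ssc-miR-383.

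A miRNA is a short RNA that guides an Argonaute protein to mRNAs whose sites pair with its seed, the bases near its 5′ end, and lowers the output of those mRNAs. miR-124 and miR-128 are abundant in neurons, miR-219 is known from oligodendrocytes that make myelin, miR-218 from motor neurons, miR-129 from brain, and miR-383 from brain and testis. miRNAs also circulate in plasma in vesicles or bound to proteins, and most have more than a single source tissue.

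Blood was drawn from 3 male Göttingen minipigs, 4 months old, before and after total body irradiation (TBI) with 2.2 Gy of cobalt gamma rays, a dose expected to kill 70% of animals within 45 days. The animals were the vehicle controls of a drug study and received dextrose under the skin and antibiotics, and none survived. Small RNA of each plasma sample was sequenced as a library, and the counts are raw. The baseline, called pre-TBI, joined C7, drawn 7 days before irradiation, with C1, drawn on the last day before it. The Early phase ran from 0d, drawn 6 h after TBI, through 1d and 3d to 7d, while 10d with 14d made up Mid, 17d was Late and 20d was LR. All groups came from the same animals, and no unirradiated animals were sampled in parallel, so radiation, time, repeated bleeding and the injections cannot be told apart. The phases were set by the study from these same libraries.

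Of 30 libraries, 24 were used, with 24341 to 550316 counts. The other 6, all of minipig 3 from 3d on, had at most 17 counts each, of which 3 in all fell on these miRNAs. The baseline thus had 6 libraries, Early 10, Mid 4, and Late and LR 2 each, and after 1d only minipigs 1 and 2 remained. The 2 libraries at 17d were shallow, with 29159 counts in minipig 1 and 63441 in minipig 2, as was that of minipig 1 at C7 with 24341. The library of minipig 1 at 17d lay outside the range of the 22 libraries from other days for 8 of the 10 measurements, and the larger changes that its omission makes are given beside the results. Plasma holds no single tissue whose markers could check the label "brain-enriched", so the word stands here for background knowledge only. A lower amount released and fewer releasing cells cannot be told apart in such samples.

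The rows share reads or genes in ways that limit how they can be told apart. In the RefSeq gene table of assembly Sscrofa11.1, which was used for names and for which genes contain which, 11 MIR genes carry these numbers and 5 lie within protein coding genes. MIR218-1 lies within SLIT2 and MIR218B within SLIT3, which encode axon guidance ligands. MIR128-1 lies within R3HDM1, MIR128-2 within ARPP21, a phosphoprotein of neurons, and MIR383 within SGCZ, which encodes a sarcoglycan. MIR129A lies within a long non-coding RNA gene, and MIR124A-1, MIR124A-2, MIR129B, MIR219A and MIR219B within none listed. The count of miR-218b exceeded that of miR-218 by 0 to 2 in each library and was equal to it in 12 of 24, so the 2 rows count nearly the same reads, and the loci in SLIT2 and SLIT3 cannot be told apart by them.

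Seed letters of the members were at hand for miR-124-3p and miR-218-5p, in the miRNA target lists that come with the study. They are shown because they set which mRNAs each would pair with, and all 7 bases are in capitals since each is the seed itself, 5′ to 3′:
miR-124-3p: AAGGCAC
miR-218-5p: UGUGCUU
The seeds differ, so these miRNAs belong to different seed families.

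The miRNAs covered a wide range of levels. A level is given as log2 CPM, where CPM is a count relative to the total of its library, set to a fixed large total, after scaling by trimmed mean of M values (TMM) and with a prior count of 2. The mean level over the 24 libraries was 13.25 for miR-124a, the 11th highest of 407 distinct rows. It was followed by miR-219a at 11.54, miR-383 at 11.33, miR-129a-5p at 10.35, miR-219b-3p at 9.29 and miR-128 at 8.84. miR-129a-3p at 7.30, miR-218-3p at 7.15, miR-218b at 6.51 and miR-218 at 6.46 lay below the median row, whose mean was 8.99. Over libraries miR-219a and miR-383 had SDs of 0.71 and 0.66, wider than the gap between their means.

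**Figure D1:**
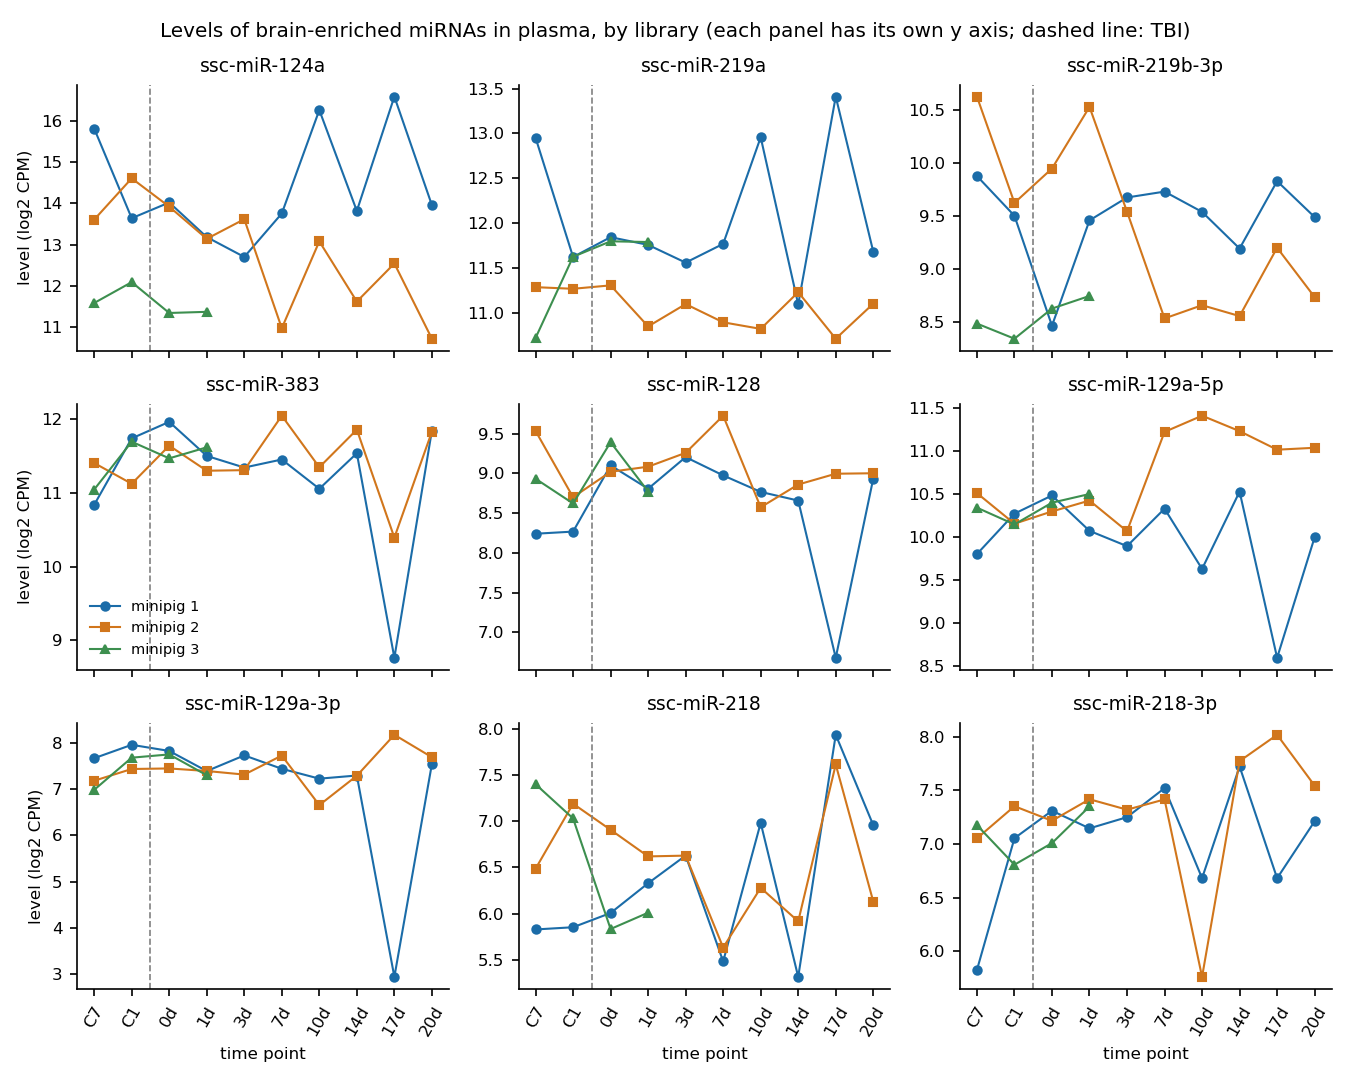
Level (log2 CPM, y axis, a separate scale in each panel) of 9 of the 10 measurements at each time point (x axis), with a line and symbol for each minipig; miR-218b, which nearly equals miR-218, is left out. miR-383 dips at 17d in both minipigs, and miR-124a of minipig 1 peaks at C7, 10d and 17d; the lowest point of miR-129a-3p is a count of 0.

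miR-383 was lower at Late than before TBI. Its levels before TBI were 10.83 and 11.73 in minipig 1, 11.40 and 11.12 in minipig 2, and 11.04 and 11.69 in minipig 3, at C7 and C1 in turn. At 17d its level was 8.77 in minipig 1, from 9 counts, and 10.39 in minipig 2, from 85 counts. Both libraries lay below all 22 others, of which the lowest was at 10.83. Against the mean of the same animal before TBI, the level at 17d differed by -2.52 in minipig 1 and by -0.87 in minipig 2. The fit across all 411 rows (edgeR's quasi-likelihood test with Benjamini-Hochberg adjustment) gave a log2 fold change of -1.51 ± 0.38 (SE, 2 libraries against 6), with an adjusted p = 0.0215.

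miR-383 was the only measurement of the 10 called at Late, where a call is an adjusted p under 0.05, and calls took 4.38% of all rows, with 0.487% called lower. As a share of all counts it was 0.0309% in minipig 1 (95% exact binomial interval 0.0141 to 0.0586%) and 0.134% in minipig 2 (0.107 to 0.166%) at 17d, intervals that cover counting error only. In minipig 1 the share was 0.152% (0.107 to 0.209%) at C7, 0.291% at C1 and 0.150% (0.121 to 0.185%) at 10d, and in minipig 2 it was 0.275% and 0.247% at C7 and C1. The share of minipig 2 at 17d was thus close to those of minipig 1 at C7 and 10d, with overlapping intervals. The call rests on minipig 1: without its library at 17d the log2 fold change was -0.93 ± 0.36 and the adjusted p = 0.203, and without that of minipig 2 it was -2.60 ± 0.49 with an adjusted p = 0.0038, the lone library being assumed to vary like the others. Without minipig 3, which has no library at 17d, it was -1.503 ± 0.43 with an adjusted p = 0.0823. In each animal the level at 17d was below all its other libraries.

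Depth differed with the phases. Over the 24 libraries the level of miR-383 went up with the log2 of the library total (Pearson's r = 0.56, the 56th highest of 407 rows), with r = 0.72 in minipig 1, 0.36 in minipig 2 and 0.32 over all without the 2 libraries whose totals were farthest from the median. With every library thinned to the same total, 24341 counts, the log2 fold change at Late was -1.90 ± 0.37 and the adjusted p = 0.00251. In the shallower libraries of minipig 1 at C7 and minipig 2 at 10d (35762 counts) the level was 10.83 and 11.34, above that of minipig 2 at 17d. The 4 libraries at Mid, with at most 103083 counts, had levels of 11.05 and 11.53 in minipig 1 and 11.34 and 11.85 in minipig 2. Scaling by library totals alone gave -1.69 at Late with an adjusted p = 0.0616. Thinning evens the totals only, by dropping counts at random, and the part of depth in the result was not tested.

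By 20d the level of miR-383 was 11.84 in minipig 1 and 11.82 in minipig 2, from 1223 and 2609 counts. Both lay above all 6 libraries before TBI, and each was 0.56 above its own baseline. At LR 6.57% of all rows lay above in this way, and 9.25% were apart in either direction. Against Late, miR-383 was higher at LR by 2.0 ± 0.44 on the log2 scale (adjusted p = 0.0394, edgeR). It was the only 1 of the 10 called there, and calls took 0.73% of all rows, 3 of 411. Over all rows the calls numbered 23 with the minipig as a block, 20 with edgeR's likelihood ratio test and 66 with DESeq2, with miR-383 the only 1 of the 10 in each. Without the library of minipig 1 at 17d the difference was 1.30 ± 0.40 with an adjusted p = 0.0792. LR itself differed from pre-TBI by 0.49 ± 0.33 (adjusted p = 0.593), and no row of the table was called at LR by adjusted p, nor by edgeR's likelihood ratio test or DESeq2, while 5.6% of rows had an unadjusted p under 0.05.

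Before 17d the level of miR-383 ran from 10.83, in minipig 1 at C7, to 12.04, in minipig 2 at 7d. In minipig 1 it went from 10.83 at C7 to 11.73 at C1, before irradiation. The 10 libraries at Early ran from 11.30 to 12.04 with a median of 11.48, and each was above the mean of its own animal before TBI, by 0.036 to 0.78. With library totals alone as the scaling, 7 of 10 were above and 3 below. With TMM 9% of all rows had all 10 libraries above. The fit gave 0.24 ± 0.21 at Early (adjusted p = 0.503) and 0.13 ± 0.27 at Mid (adjusted p = 0.978). C1 against C7 gave 0.42 ± 0.34 (adjusted p = 0.997), a difference between unirradiated time points that was larger than that at Early.

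**Figure D2:**
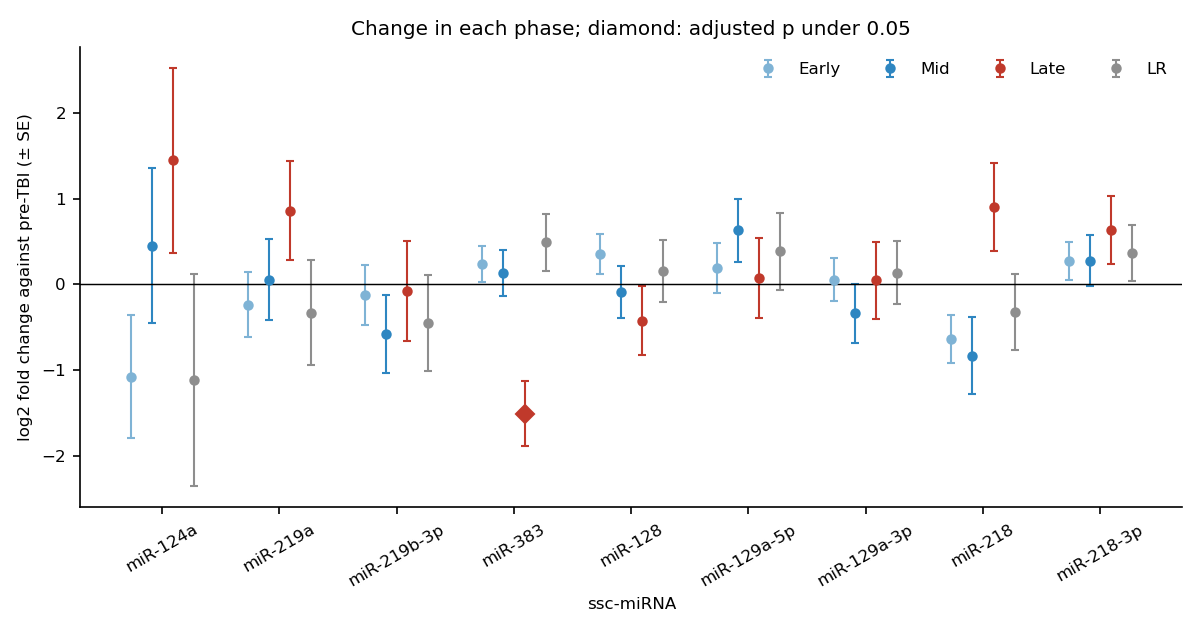
Log2 fold change against pre-TBI (y axis, with SE as bars) of 9 measurements (x axis) at Early, Mid, Late and LR, from the edgeR fit; the diamond marks an adjusted p under 0.05. miR-383 at Late (-1.51) is the only diamond, miR-124a has the widest bars, and with scaling by library totals alone the sign turned for miR-129a-3p at Early and Late, miR-129a-5p at Late and miR-219a at Mid.

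miR-124a had the highest level of these miRNAs and varied most. Its SD over the 24 libraries was 1.58, the 19th highest of 407 rows, against a median of 0.68. The lowest level was 10.72, in minipig 2 at 20d, and the highest 16.59, in minipig 1 at 17d. Levels before TBI were 15.81 and 13.64 in minipig 1, 13.61 and 14.61 in minipig 2, and 11.59 and 12.09 in minipig 3. The animals thus differed before irradiation, and minipig 3 stayed lowest at 0d and 1d, with 11.35 and 11.37.

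At Early the level of miR-124a ran from 10.98 to 14.02 with a median of 13.16, and all 10 libraries lay below the mean of their own animal before TBI, with TMM as with library totals alone. With TMM the same was true of 11.2% of all rows. The fit gave -1.08 ± 0.71 on the log2 scale with an adjusted p = 0.377 (edgeR), and the ranges of Early and pre-TBI overlapped. No row of the table was called at Early by adjusted p, while 18.7% of rows had an unadjusted p under 0.05, and the likelihood ratio test of edgeR called 29 rows and DESeq2 33, none of them among the 10. The baseline of minipig 1 rests in part on its shallow library at C7, without which the difference at Early was -0.42 ± 0.71 (adjusted p = 0.888).

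From 7d on minipigs 1 and 2 were far apart in miR-124a. In minipig 2 the level was 13.62 at 3d and 10.98 at 7d, then 13.08 and 11.62 in the Mid phase, 12.54 at Late and 10.72 at LR. Its counts went from 3305 at 3d to 431 at 7d, a drop in share from 1.27% (95% exact binomial interval 1.23 to 1.31%) to 0.250% (0.227 to 0.275%). In minipig 1 the level was 13.76 at 7d, 16.26 and 13.82 in the Mid phase, 16.59 at Late and 13.96 at LR. miR-124a made up 7.12% of all counts of minipig 1 at 17d (6.82 to 7.42%) and 0.599% of those of minipig 2 (0.540 to 0.662%).

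No difference of miR-124a between phases passed the test. The log2 fold change was 0.45 ± 0.90 at Mid (adjusted p = 0.978), 1.45 ± 1.08 at Late (adjusted p = 0.413) and -1.12 ± 1.24 at LR (adjusted p = 0.711). Without the library of minipig 1 at 17d the value at Late turned to -1.60 ± 1.63. With the minipig as a block, which takes out the difference between animals, the value at Mid turned to -0.39 ± 0.73, that at Late was 0.47 ± 0.89 and that at LR -2.001 ± 1.00 (adjusted p = 0.931, 0.824 and 0.372, edgeR).

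The 3 highest levels of miR-124a were those of the 3 shallowest libraries of minipig 1, at C7, 10d and 17d. Its counts in that animal ran from 1173 to 5326, a 4.54-fold range, while library totals ran over a 16.5-fold range. The level went down with the log2 of the total in minipig 1 (Pearson's r = -0.84, 10 libraries of the same animal) but not in minipig 2 (r = 0.069, 10 libraries). Over all 24 libraries r was -0.59, and -0.36 without the 2 libraries whose totals were farthest from the median. These are descriptions, and the part of depth in the levels was not tested.

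**Figure D3:**
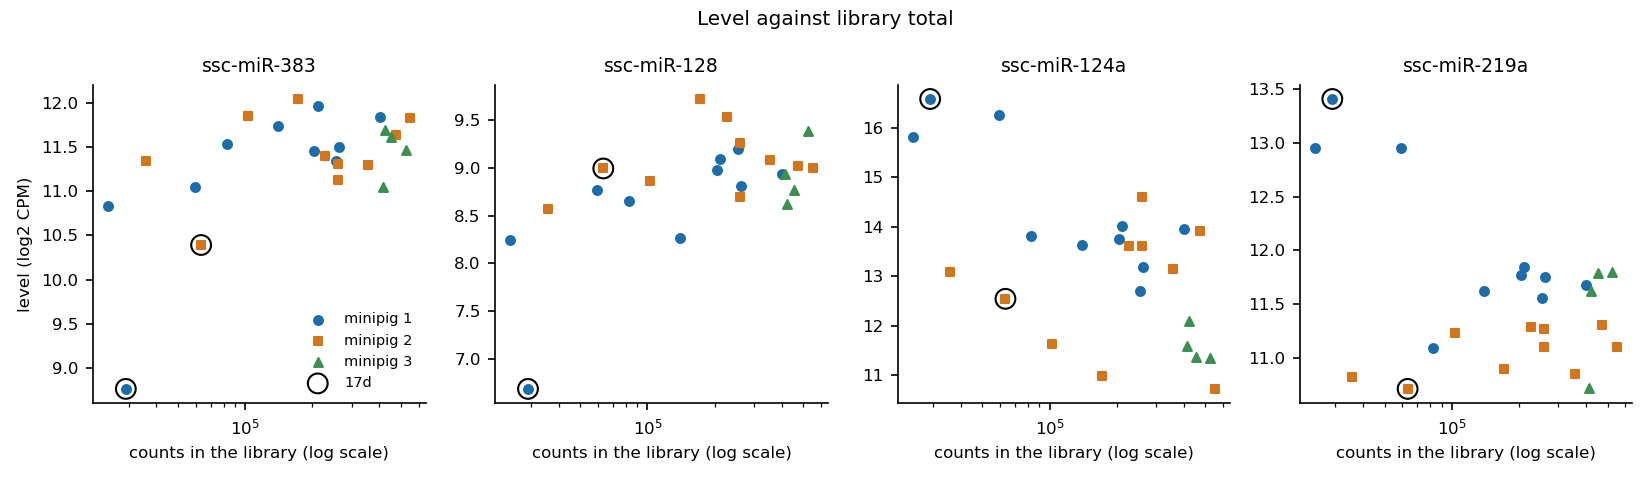
Level (log2 CPM, y axis) against the total count of the library (x axis, log scale) for miR-383, miR-128, miR-124a and miR-219a, with symbols for the minipigs and rings around the 2 libraries at 17d. miR-124a and miR-219a are highest in shallow libraries of minipig 1 but not of minipig 2, and the ringed points of miR-383 lie below every other library.

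miR-219a, the other abundant member, resembled miR-124a in minipig 1. Its level there was 12.95 at C7, 12.96 at 10d and 13.41 at 17d, and 11.09 to 11.84 in the other 7 libraries. In minipig 2 it stayed between 10.71 and 11.30 over all 10 libraries, a range that lies below all but 1 of the libraries of minipig 1. The fit gave -0.24 ± 0.38 for Early, 0.055 ± 0.48 for Mid, 0.86 ± 0.58 for Late and -0.33 ± 0.61 for LR, none called (adjusted p from 0.368 to 0.978, edgeR). Without the library of minipig 1 at 17d the value at Late turned to -0.98 ± 0.71, and without that of minipig 2 it was 1.67 ± 0.61 with an adjusted p = 0.0485.

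miR-219b-3p, from the other named miR-219 locus, ran from 8.34 to 10.63. All 4 libraries of minipig 3 lay between 8.34 and 8.75, and minipig 2 had its highest values, 10.63 and 10.53, at C7 and 1d. From 7d on minipig 2 was at 8.53, 8.66, 8.56, 9.20 and 8.74, below its own baseline mean of 10.13 each time. The log2 fold change was -0.13 ± 0.35 for Early, -0.58 ± 0.46 for Mid, -0.082 ± 0.58 for Late and -0.45 ± 0.56 for LR, none called. miR-219a exceeded miR-219b-3p in 24 of 24 libraries, by a mean of 2.26 ± 0.85 (SD) on the log2 scale of counts.

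miR-218 had few counts, from 1 to 92 per library. Its level before TBI was 5.83 and 5.85 in minipig 1, 6.49 and 7.19 in minipig 2, and 7.40 and 7.03 in minipig 3. The 10 libraries at Early ran from 5.48 to 6.91 with a median of 6.17, 6 of them below their own baseline. The fit gave -0.64 ± 0.28 at Early with an unadjusted p = 0.0331 and an adjusted p = 0.230 (edgeR). miR-218b, which shares its reads, gave -0.63 ± 0.27 with an adjusted p of the same size. These 2 rows were the only ones of the 10 with an unadjusted p under 0.05 at Early, where 13.6% of all rows were lower and 5.11% higher at that threshold, and they amount to a single measurement. With the minipig as a block neither stayed under it. Without minipig 3 the values for miR-218 and miR-218b were -0.24 ± 0.36 and -0.26 ± 0.34. With thinned counts they were -0.044 ± 0.50 and -1.08 ± 0.52 (unadjusted p = 0.0469 for miR-218b, edgeR). The block with thinned counts gave 0.042 and -0.85. As the rows count nearly the same reads, thinning to such low counts does not settle the size of this difference.

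At 17d miR-218 was at 7.94 in minipig 1 and 7.62 in minipig 2, above all 22 other libraries, but from 5 and 12 counts. Ranges apart from those before TBI, as seen here for miR-218 and miR-218b above and miR-383 below, were found at Late in 10.9% of all rows. The fit gave 0.90 ± 0.52 at Late (adjusted p = 0.297). At 20d the levels were 6.96 and 6.13, within the range before TBI, and LR against Late gave -1.23 ± 0.60 (adjusted p = 0.161). For miR-218b that difference was -1.31 ± 0.58, with an unadjusted p = 0.033, a threshold that 32.1% of all rows passed (20.4% lower). At Mid, with 3 to 6 counts per library, the value for miR-218 was -0.83 ± 0.44 (adjusted p = 0.818).

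The strands of miR-218 were also set against each other. A miRNA hairpin yields a 5p and a 3p strand, and the 5p strand is the one known as the guide of miR-218. In plasma miR-218-3p had the higher count in most libraries, and the 5p count exceeded it in 5 of 24. The 5p reads fall on the rows miR-218, miR-218-5p and miR-218b, and how shared reads were assigned is not known. The count of the miR-218 row may thus not hold all 5p reads, so which strand was the more abundant is not settled. The log2 ratio of 5p to 3p counts, with 0.5 added to each, was -0.26 ± 0.58 (SD, n = 6) before TBI and -1.16 ± 0.58 (n = 10) at Early, where it was below 0 in every library. It was -0.90 ± 1.51 (n = 4) at Mid, 1.14 and -0.40 at 17d, and -0.27 and -1.51 at 20d. The ranges before TBI (-1.25 to 0.24) and at Early (-2.18 to -0.32) overlapped. The ratio needs no scaling of libraries, but it was chosen after the values were seen and was not tested. miR-218-3p itself was above its own baseline in all 10 libraries at Early with TMM, as 9% of all rows were, and in 7 of 10 with library totals alone. The fit gave 0.27 ± 0.22 for Early, 0.28 ± 0.30 for Mid, 0.63 ± 0.40 for Late and 0.37 ± 0.33 for LR, none called. The value for Late was 1.02 ± 0.46 without the library of minipig 1 at 17d (unadjusted p = 0.0391, adjusted p = 0.370, edgeR).

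**Figure D4:**
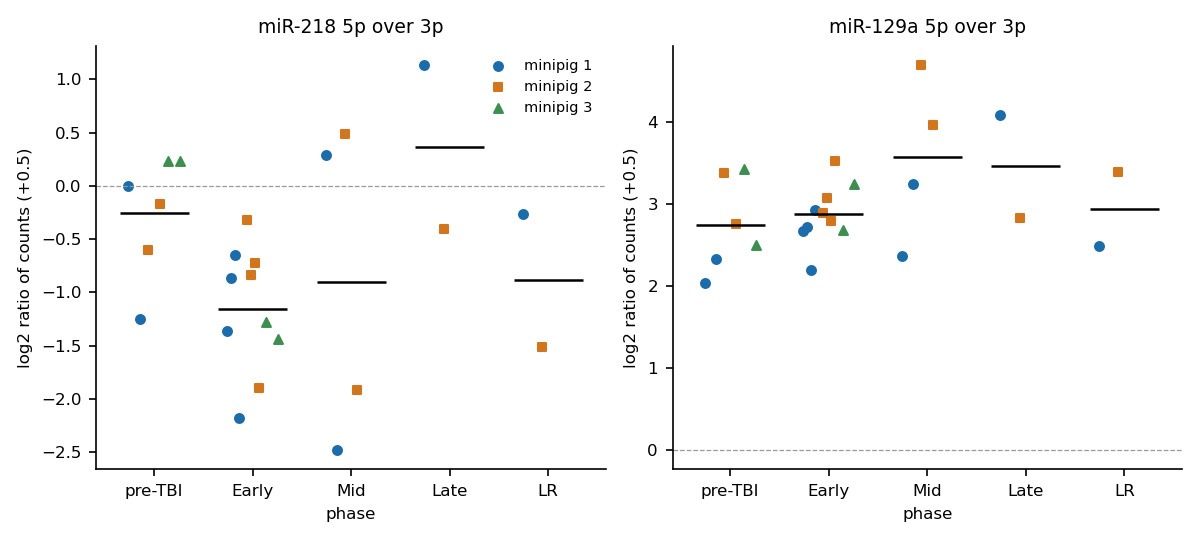
Log2 ratio of 5p to 3p counts, with 0.5 added to each (y axis), of miR-218 (left) and miR-129a (right) in each library by phase (x axis), with symbols for the minipigs and a line at the mean. For miR-218 all 10 libraries at Early lie below 0, while for miR-129a all 24 libraries lie above 2.

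In miR-129a the 5p strand was the more abundant in 24 of 24 libraries, by 2.04 to 4.69 on the log2 scale of counts. miR-129a-5p, whose count is the same as that of miR-129b, was the steadiest of the abundant members before TBI, with levels between 9.80 and 10.51 in the 6 libraries. In minipig 2 it was at 10.07 at 3d and then at 11.22, 11.41, 11.23, 11.01 and 11.03 from 7d to 20d, each above both of its values before TBI. In minipig 1 it was at 10.33, 9.63, 10.53, 8.60 and 10.00 over the same days, the value at 17d from 8 counts. Against their own baselines both animals were above at 7d and 14d, while at 10d, 17d and 20d minipig 1 was below and minipig 2 above. The fit gave 0.19 ± 0.29 for Early, 0.63 ± 0.36 for Mid, 0.077 ± 0.47 for Late and 0.38 ± 0.45 for LR, with adjusted p from 0.718 to 0.956. At Mid the value was 0.027 ± 0.32 without minipig 2, and 0.98 ± 0.31 without minipig 1 (unadjusted p = 0.00684, adjusted p = 0.404). Without the library of minipig 2 at 17d the value at Late turned to -1.65 ± 0.64 (adjusted p = 0.0616), and without that of minipig 1 it was 0.81.

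miR-129a-3p ran from 6.66 to 8.18 outside the library of minipig 1 at 17d, where its count was 0. At 29159 counts in that library, a count of 0 does not show absence. Its log2 fold change was 0.054 ± 0.25 for Early, -0.34 ± 0.34 for Mid, 0.047 ± 0.45 for Late and 0.14 ± 0.37 for LR, none called. It was 0.73 ± 0.32 at Late without the library of minipig 1 at 17d (unadjusted p = 0.0392, adjusted p = 0.370, edgeR).

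miR-128, encoded by separate genes in R3HDM1 and ARPP21, was close to the median row in level and among the less variable, with an SD of 0.58. Its level was 8.24 to 9.53 before TBI, 8.77 to 9.72 at Early and 8.57 to 8.86 at Mid. At 17d it was 6.68 in minipig 1, from 2 counts, and 8.99 in minipig 2, and at 20d 8.93 and 9.0. The low value of minipig 1 stands alone, and without it the fold change at Late turned from -0.42 ± 0.41 to 0.20 ± 0.42. The values were 0.35 ± 0.23 at Early, -0.093 ± 0.30 at Mid and 0.16 ± 0.36 at LR, none called.

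As a group the 10 measurements gave few calls. The median log2 fold change of the 10 was -0.037 for Early, -0.019 for Mid, 0.35 for Late and -0.089 for LR, against 0.018, 0.052, 0.076 and -0.0078 over all 411 rows. The median of the 10 at Late was 0.14 with library totals alone, 0.082 with the block and thinned counts, and -0.082 without the library of minipig 2 at 17d. Called by adjusted p were 0 of 10 at Early, Mid and LR, as for all rows (0%), and 1 of 10 at Late, and these counts were the same with edgeR's likelihood ratio test and with DESeq2. At an unadjusted p under 0.05 there were 2 of 10 at Early, where 18.7% of all rows passed (13.6% lower). These are miR-218 and miR-218b, with nearly the same reads, and with the block there were 0. At Mid there were 0 of 10, where 2.19% of all rows were higher and 3.16% lower (5.35% in all). Late had 1 of 10 lower and 0 higher, against 7.06% lower and 15.6% higher among all rows (22.6% in all). LR had 0 of 10, against 3.65% higher and 1.95% lower. C1 against C7 gave 0 calls of 10 by either threshold, with 1.22% of all rows under the unadjusted one; the likelihood ratio test and DESeq2 each gave 1 at the unadjusted threshold.

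Some of the correlations of level between members, given as descriptions, rested largely on a single library. Over the 24 libraries, which share animals and depth, Pearson's r of miR-383 was 0.78 with miR-129a-3p, 0.73 with miR-128, 0.62 with miR-129a-5p and -0.63 with miR-218. Without the library of minipig 1 at 17d these were 0.021, 0.22, 0.24 and -0.51. miR-124a and miR-219a had r = 0.69, and 0.59 without that library. Both ran opposite to miR-129a-5p, with r of -0.72 and -0.78, and of -0.63 and -0.66 without it.

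**Figure D5:**
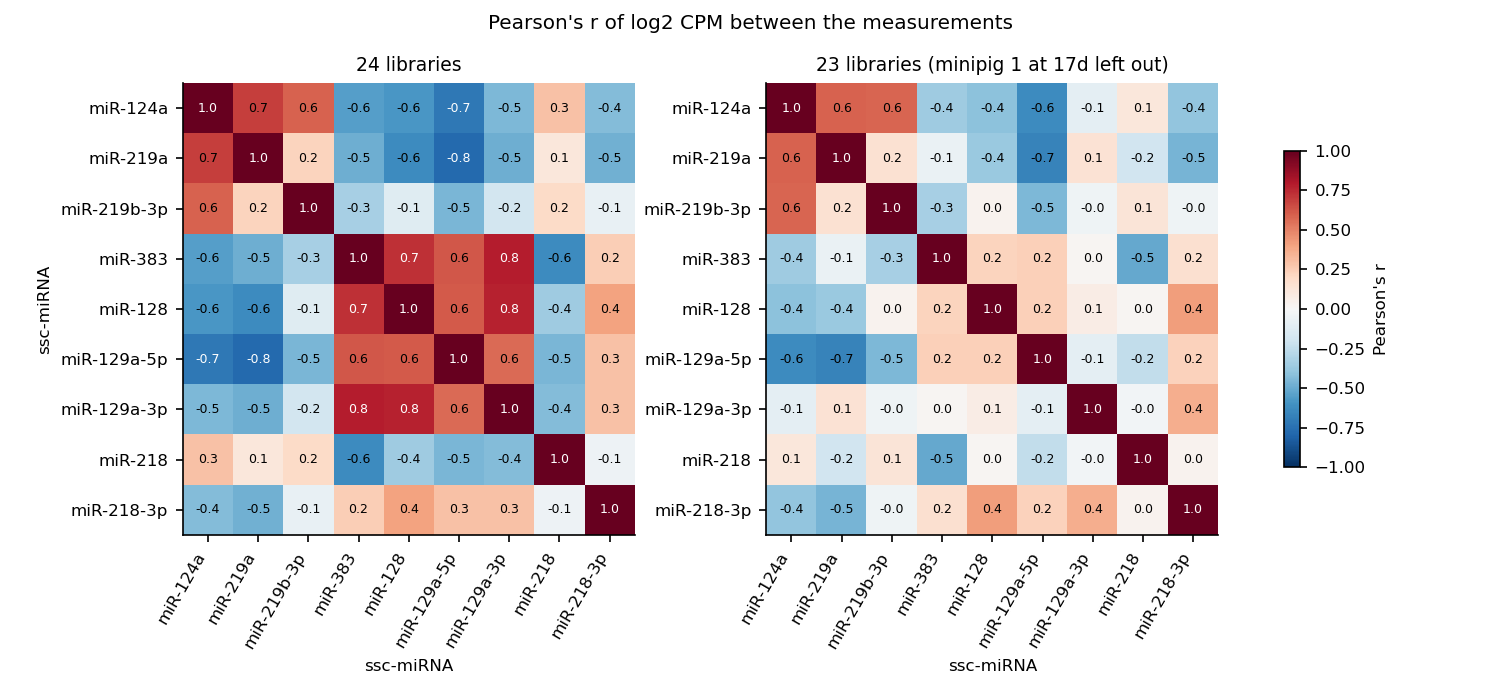
Pearson's r of log2 CPM between 9 measurements (rows and columns), over 24 libraries on the left and over the 23 without minipig 1 at 17d on the right, in red for positive and blue for negative values. The block of miR-383, miR-128 and both miR-129a strands on the left is pale on the right, while miR-124a with miR-219a stays red.

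The rows of the whole table that were most like each member also differed in how far they rested on that library. miR-124a tracked miR-490 with r = 0.98, miR-146a-5p with 0.97 and miR-9850-5p with 0.96 over 24 libraries, and with 0.98, 0.96 and 0.96 over 23. miR-219a tracked miR-185 (r = 0.97) and miR-328 (0.94), with 0.95 and 0.91 over 23 libraries, and miR-219b-3p tracked miR-497 with 0.96 over either. For miR-383 the highest were miR-2320-5p (0.92), miR-4335 (0.92) and miR-296-5p (0.90), which went to 0.78, 0.79 and 0.71. For miR-129a-3p r with miR-20b went from 0.94 to 0.38, and for miR-128 r with miR-9849-5p from 0.87 to 0.59. miR-218 was nearest to miR-218b (0.99), whose reads it shares, and then to miR-30b-5p (0.82).

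Of a list of other miRNAs known from brain, 18 rows were in the table. At Late 3 of 18 rose by adjusted p and none fell, against 3.89% of all rows called higher. They were miR-9-1 at 3.72 ± 0.63, miR-9 at 2.73 ± 0.57 and miR-138 at 1.91 ± 0.36 on the log2 scale, the opposite sign to miR-383 (adjusted p = 0.000656, 0.00325 and 0.00125, edgeR). miR-9-1 and miR-9 carry the same number and may not be separate miRNAs. The list was chosen with earlier results of these data known. With the minipig as a block and thinned counts, miR-9-1, miR-9 and miR-138 were at 3.53, 2.25 and 1.54, and miR-138 was not called (adjusted p = 0.349, edgeR). Without the library of minipig 1 at 17d they were at 4.53, 3.16 and 1.68. Without that of minipig 2 they were at 2.04, 2.17 and 2.20. Each of these fits left a single library at Late. Without minipig 2 altogether miR-9-1 and miR-9 were not called (adjusted p = 0.211 and 0.159), and without minipig 3 miR-9-1 alone was. The 3 most abundant of the list, miR-326, miR-149 and miR-885-3p, gave -0.70 ± 0.47, -0.46 ± 0.40 and -0.62 ± 0.47 at Late, none called. These 3 were at -2.28, -0.86 and -2.18 without the library of minipig 2 at 17d. Without that of minipig 1 they were at 0.014, -0.16 and 0.056, so their values too depended on the library left out. None of the 18 was called in another phase, and the median of the list was 0.19 at Late.

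Markers of other sources had these values at Late, where none of their rows was called. The erythrocyte miRNAs miR-144, miR-451 and miR-486 gave log2 fold changes of -2.74 to -1.61 at Late, with 0 of 3 called, and their summed level was 13.03 and 13.32 in the libraries at 17d against 13.14 to 16.43 before TBI. The log2 ratio of miR-451 to miR-23a, a measure of haemolysis, was -0.30 in minipig 1 and -1.42 in minipig 2 at 17d, and -1.19 to 3.42 before TBI. The summed level of the 8 muscle rows was 11.36 and 12.07 at 17d against 10.63 to 12.01 before TBI, and 0 of 8 were called. The liver miRNA miR-122 was at 8.40 and 10.79 against 9.26 to 10.37. Of the platelet and myeloid list only 2 arms of miR-126 were found and no row for miR-223, so myeloid cells had no marker of their own. The miR-126 rows summed to 9.84 and 10.08 against 9.46 to 10.81. The 2 lymphocyte rows summed to 9.98 and 10.86 against 10.42 to 10.95, with 0 called in either list at Late. The part of these in the values of miR-383 and the other members was not tested.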

How the data were processed

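Per the paper's methods, the authors made small RNA libraries from plasma, demultiplexed with bcl2fastq2 2.20, trimmed with Cutadapt 1.16, aligned with Bowtie 2.2.3.0 to ssc5 and then to miRBase ssc-miRNAs, and quantified with miRDeep2. They tested with edgeR 3.6 and an unadjusted p under 0.05. Their panel of early markers also marks the miRNAs that met a false discovery rate of 0.05. Among these is miR-218-5p, listed there as higher at Early, Mid and LR. In the fit here its values were negative in these phases and none was called, and the cause of this difference was not tested. The deposited values are raw counts per ssc-miRNA and library, without normalization. How reads that match several near-identical rows were assigned is not given in the sources used here.

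Here libraries under 1000 counts were left out. edgeR 4.0.16 (R 4.3.3) fitted the counts by its quasi-likelihood test, with TMM, rows with CPM above 0.5 in at least 3 libraries (all 411), and 5 phase groups without an animal term. P values were adjusted by Benjamini-Hochberg over all rows of a comparison. C1 against C7 used a fit with 6 groups, since C7 and C1 were then separate. Fold changes used a prior count of 0.125 and levels a prior count of 2. The SE of a fold change was derived from its test, as its size over the square root of the F statistic, and is approximate. No fold change is given where every library of a group had 3 counts or fewer. The members and lists were chosen with earlier results of these data known. The tests had been set out for miR-129, miR-218 and miR-383 and were applied alike to all rows that the rule found. Named neighbours were the rows with the highest Pearson's r, and named genes of the brain list the 3 with the highest mean. The same animals recur, so libraries are paired by design: deviations from phase means correlated at 0.168 on average over 78 pairs of the same minipig and at -0.102 over 130 pairs of different minipigs. Replicates within a phase include several days of 1 animal, so p-values without the block treat them as independent. Scripts were tested on simulated data. Levels, shares and correlations were computed in Python 3.11.15 (scipy 1.17.1, pandas 2.3.3, numpy 2.4.6) and drawn with matplotlib 3.10.9. Intervals for shares are exact Clopper-Pearson at 95% and cover counting error only. Alternatives were other scalings and filters, edgeR's likelihood ratio test, DESeq2 1.42.0, thinning to equal totals, the minipig as a block, fits with the compared groups only, C7 alone as baseline, merged rows and leaving out each animal. Leaving out single libraries was added after seeing the data.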

Additional observations from a re-analysis of the deposited data

Results flagged for a closer look

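Of 30 groups of 4 to 10 libraries checked for a library far from the others of its phase, 3 were flagged, where chance flags about 1 in 20. miR-129a-3p of minipig 2 at 10d had a level of 6.658 log2 CPM, from 4 counts, against 7.23 to 7.30 in the other libraries at Mid. miR-129a-5p of minipig 2 at 7d had 11.22, from 510 counts, against 9.89 to 10.50 in the other libraries at Early, and this animal stayed above 11 until 20d. miR-218-3p of minipig 1 at C7 had 5.828, from 1 count, against 6.81 to 7.35 in the other libraries before TBI.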

How the results depend on the processing

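Of 46 fitted results, 21 kept their direction under every alternative run. Both miR-383 calls, at Late and of LR against Late, kept their side of the threshold with another scaling (RLE), no or a stricter filter, the likelihood ratio test, DESeq2, thinned counts, merged rows and the minipig as a replicate block (-1.54, adjusted p = 0.0319, and 2.03, adjusted p = 0.0309, edgeR). They lost it with library totals alone (-1.69, adjusted p = 0.0616, and 2.21, adjusted p = 0.113) and in fits of the compared groups only (-1.56, adjusted p = 0.407, and 1.99, adjusted p = 0.505), where fewer libraries set the spread, and that at Late with C7 alone as baseline (-1.36, adjusted p = 0.157). The count of measurements called was then 0 in each case, in place of 1. Without an animal or a library that count ran from 0 to 4 at Late and from 0 to 5 for LR against Late. Scaling by totals alone moved the median of all rows at Late from 0.076 to -0.21. Without minipig 2, miR-129a-5p turned to -1.88 at Late. Without the 17d library of minipig 2 alone, miR-129a-5p was 2.03 higher at LR than at Late. Both values rest on a single library at Late. Without minipig 1 or 3, neither miR-383 call held (adjusted p = 0.268 and 0.0823 at Late, 0.320 and 0.0823 for LR against Late). Values that changed sign follow as log2 fold changes against pre-TBI unless named. Scaling by library totals alone turned miR-129a-3p Early to -0.029, miR-219a Mid to -0.072, miR-129a-3p Late to -0.14, miR-129a-5p Late to -0.093. The minipig as a replicate block turned miR-124a Mid to -0.39, miR-219a Mid to -0.0022, miR-129a-5p Late to -0.10, miR-124a C1-C7 to 0.052, miR-129a-5p C1-C7 to 0.0073. The block with thinned counts turned miR-129a-3p Early to -0.47, miR-218 Early to 0.042, miR-218-3p Early to -0.043, miR-124a Mid to -0.40, miR-128 Mid to 0.14, miR-219a Mid to -0.069, miR-383 Mid to -0.015, miR-129a-3p Late to -1.23, miR-129a-5p Late to -0.13, miR-129a-5p C1-C7 to 0.11. Thinned counts turned miR-129a-3p Early to -0.49, miR-218-3p Early to -0.12, miR-128 Mid to 0.24, miR-129a-3p Late to -1.23, miR-129a-5p C1-C7 to 0.065. C7 alone as the baseline turned miR-219a Mid to -0.095, miR-129a-5p Late to -0.028, miR-128 LR to -0.16. The cause was not tested. Leaving out an animal or a single library gave these ranges: miR-219a Early -0.55 to 0.076, miR-129a-3p Early -0.045 to 0.098, miR-219b-3p Early -0.35 to 0.073, miR-124a Mid -0.95 to 1.31, miR-219a Mid -0.26 to 0.44, miR-128 Mid -0.31 to 0.14, miR-219b-3p Mid -1.00 to 0.29, miR-383 Mid -0.027 to 0.24, miR-124a Late -1.60 to 2.36, miR-219a Late -0.98 to 1.67, miR-383 Late -2.93 to -0.93, miR-129a-5p Late -1.88 to 0.81, miR-219b-3p Late -0.55 to 0.43, miR-129a-3p Late -0.034 to 0.82, miR-128 Late -0.56 to 0.20, miR-129a-3p LR -0.20 to 0.38, miR-129a-5p LR -0.34 to 0.76, miR-219b-3p LR -0.89 to 0.22, miR-128 LR -0.050 to 0.18, miR-383 LR-Late 1.30 to 3.22, miR-124a LR-Late -3.48 to 0.33, miR-129a-5p LR-Late -0.52 to 2.03, miR-124a C1-C7 -1.80 to 0.97, miR-129a-5p C1-C7 -0.33 to 0.0063, miR-218 C1-C7 -0.66 to 0.39. Among the 10 measurements the block changed no call of adjusted p, while over all rows it moved the calls of LR against Late from 3 to 23. Where an animal or library was left out and a phase kept 1 library, that library was assumed to vary like the others. Depth limits miR-218 (1 to 92 counts) and, at 17d, every member of minipig 1 under 10 counts. Late and LR hold 2 animals, and 24 of the alternatives gave no value, since a group then had 3 counts or fewer in every library.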
